A study of Homo sapiens with 9 samples.

Results

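The genes described here are 38 members of the hypoxia and glycolysis programme, chosen by name out of the 20876 genes in the count table. They are 14 hypoxia genes (the factors, their oxygen sensors and their targets) and 24 genes of glucose uptake, glycolysis and lactate handling. Each was read from its transcript with the highest total count over the 9 libraries. All 38 were found, and 37 passed the low-count filter. BNIP3, a mitophagy receptor, did not, with counts of 9, 7 and 11 in APC, 3, 5 and 1 in CONTROL and 7, 0 and 5 in SW480, so it was not tested.

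Poly(A) RNA was sequenced from 3 lines, each as 3 replicate libraries. APC is SW480 carrying the pEF-mycAPC construct, which restores functional APC, CONTROL is SW480 carrying the pEF vector alone, and SW480 is the parental colorectal cancer line, whose own APC is defective. All were grown in RPMI with thioglycerol, hydrocortisone, insulin and foetal calf serum. APC and CONTROL also received 1.5 mg/ml of the selection drug G418, and SW480 did not. The APC plates were seeded with fewer cells than those of CONTROL and SW480, in a ratio of 2 to 3.35, and RNA was taken 72 h later. Each construct is represented by 1 derived line, so the effect of APC, the identity of that line and its plating density cannot be told apart. In comparisons with SW480, G418 and the carrying of a vector cannot be told apart from these either. The labels name no oxygen treatment. Nothing says that the plates were separate cultures beyond the plating, so the p-values measure the spread between these plates.

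Library totals over genes were 16454637 to 19355496 counts. The introduced gene, APC, had 149.6, 146 and 139.7 CPM (counts scaled to library size) in the APC line, while CONTROL had 48.1, 46.3 and 49.4 CPM and SW480 had 46.6, 49.6 and 51.5 CPM. This is a 3.02-fold difference from CONTROL, and reads of the construct and of the endogenous gene were not separated. The epithelial keratins KRT8 and KRT18 were at 2079 CPM or more in all 9 libraries, while the colon markers KRT20, CDX1 and CEACAM5 were at or near 0. Of 10 colon epithelium markers 7 were tested, and in APC against CONTROL 4 rose (EPCAM, CDH1, VIL1 and KRT19), 2 fell (KRT18 and CDX2) and KRT8 was not called. EPCAM, CDH1 and VIL1 were over 2-fold higher in both APC comparisons, and KRT19 was lower in APC than in SW480. The part of these markers in the results on the members was not tested. The summed level of 5 leukocyte markers was at most 2.59 CPM in any library, and that of 6 fibroblast and endothelium markers was at most 14.7 CPM, most of it COL1A1.

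Hypoxia-inducible factor (HIF) is made of an oxygen-regulated alpha subunit and a stable partner, ARNT. When oxygen is present, prolyl hydroxylases mark the alpha subunit and the VHL ubiquitin ligase removes it, so its activity is set largely at the protein level, which mRNA does not show. Stable HIF binds the core motif ACGTG or GCGTG and raises genes of pH control, blood vessel growth, glucose uptake, glycolysis and lactate export. In colorectal tumours the same glycolytic genes are also driven at normal oxygen by other routes, among them MYC.

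Taken as a list, the members moved in both directions. In APC against CONTROL, 14 members rose, 12 fell and 11 did not pass edgeR's quasi-likelihood test at an adjusted p of 0.05. The share called was 70.3% of the 37, beside 70.2% of all 14253 genes tested (34.8% higher and 35.4% lower). In 29 members the libraries of the 2 lines did not overlap, beside 73.4% of all genes. Of the 37, 4 were called and over 2-fold, a smaller share than the 18.3% of all genes. The median log2 fold change was 0.07, against −0.01 for all genes. In APC against SW480, 21 members rose, 10 fell and 6 were not called, a share of 83.8%, beside 72.5% of all genes (35.6% higher and 36.9% lower). In 31 members the libraries did not overlap, beside 73.1% of all genes, and 5 were over 2-fold, beside 19.1% of all. The median here was 0.18, against −0.01 for all genes. Both comparisons use the same APC libraries. Between the lines without the construct, CONTROL against SW480, 16 members rose, 6 fell and 15 were not called, a share of 59.5%, beside 50% of all genes (25.3% higher and 24.7% lower). In 25 members the libraries did not overlap, beside 56.6% of all genes.

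In both APC comparisons 12 members rose and 9 fell, beside 27.8% and 27.9% of all genes, so 21 of 37 were called the same way in both, beside 55.8% of all. LDHB was called in opposite directions, as were 2.66% of all genes, and 15 members were not called in both. CA9 and CA12 were over 2-fold higher in both, and NDRG1 and SLC2A3 over 2-fold lower in both, beside 6.52% of all genes higher and 8.19% lower by that much in both, 14.7% in all. The hypoxia part had larger changes than the glycolysis part, which is a description with no test. The median absolute log2 fold change in APC against CONTROL was 0.67 over the 13 hypoxia genes tested and 0.11 over the 24 glycolysis genes, with 0.34 over all genes. Against SW480 these medians were 0.75 and 0.31, with 0.35 over all genes.

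**Figure D1:**
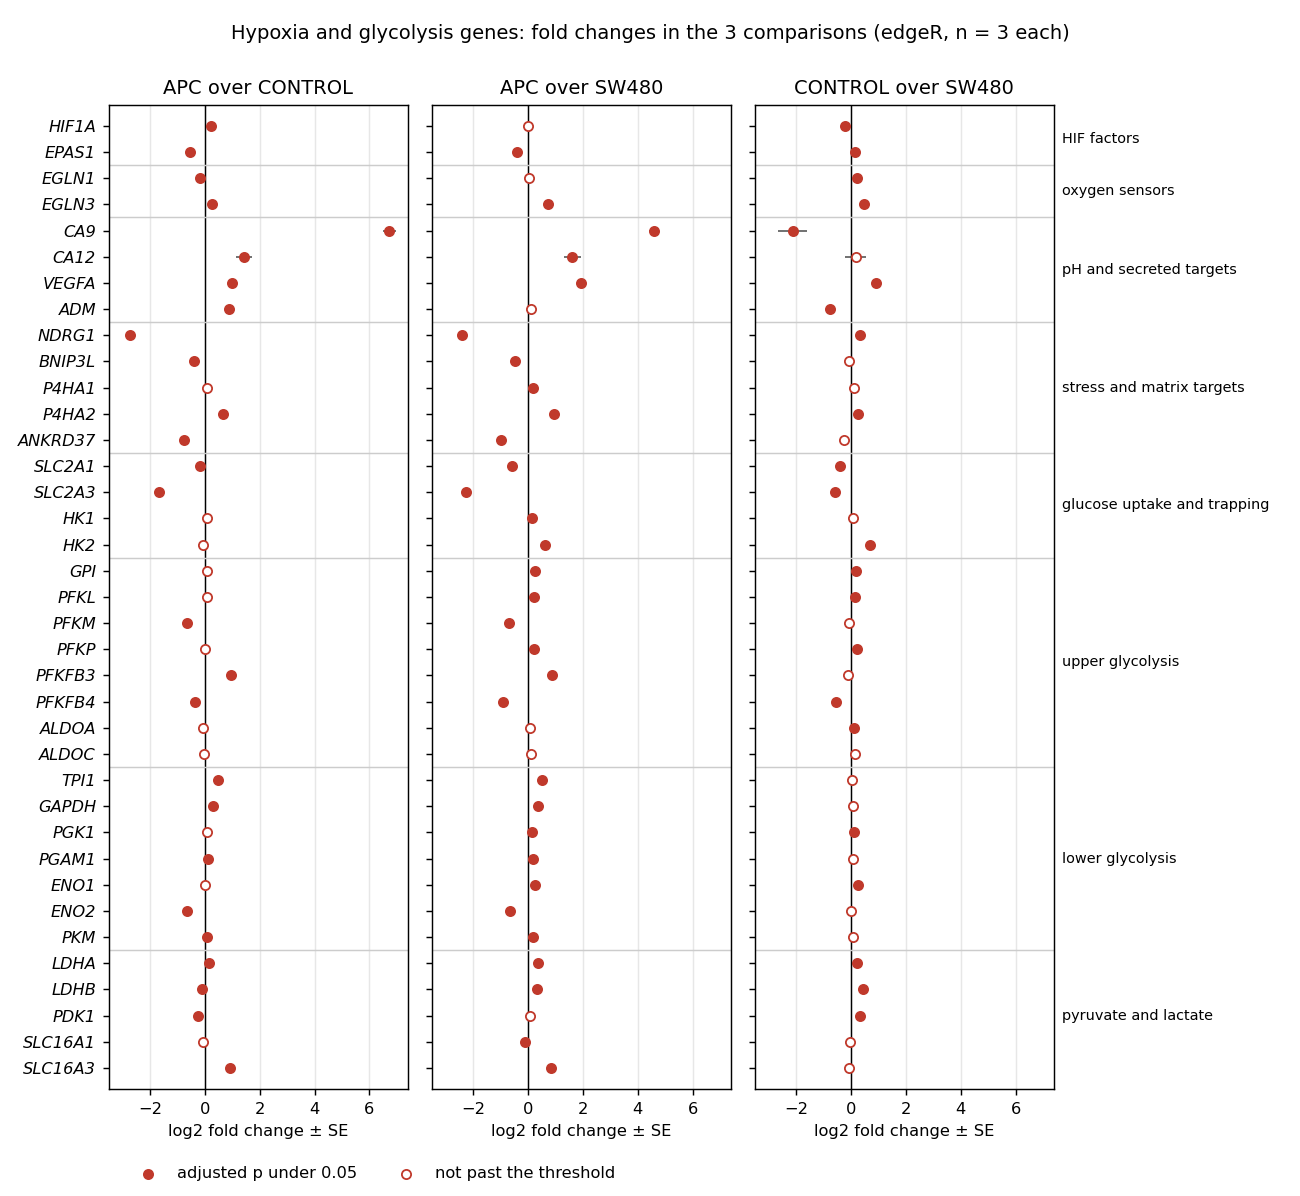
Log2 fold changes ± SE of the 37 tested members in APC over CONTROL, APC over SW480 and CONTROL over SW480, in rows grouped by role, with filled points for an adjusted p under 0.05. The SE was derived from the test's F statistic and is too small for CA9. CA9 lies far to the right in both APC panels and to the left in the third, NDRG1 and SLC2A3 lie furthest to the left in both APC panels, and most glycolytic enzymes stay within 1 log2 unit of 0.

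The alpha subunits went different ways. HIF1A, the alpha subunit of HIF-1, had 179, 185 and 181 CPM in APC, 159, 153 and 155 CPM in CONTROL and 182, 181 and 182 CPM in SW480. CONTROL was the low line, and APC and SW480 overlapped. The log2 fold change was 0.22 ± 0.04 in APC against CONTROL (edgeR adjusted p = 1.9e-06), −0.00 ± 0.04 in APC against SW480 (adjusted p = 0.985) and −0.22 ± 0.04 in CONTROL against SW480 (adjusted p = 4.23e-06). The HIF1A difference from CONTROL was therefore not seen against the parental line.

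EPAS1, which encodes HIF-2 alpha, had 152, 151 and 156 CPM in APC, 219, 222 and 221 CPM in CONTROL and 204, 192 and 201 CPM in SW480. Every APC library was below every CONTROL and SW480 library. It fell by 0.53 on the log2 scale against CONTROL (edgeR adjusted p = 1.16e-14) and by 0.38 against SW480 (adjusted p = 5.32e-11). HIF1A made up 60.2% ± 0.702 of the summed HIF1A and EPAS1 level in APC, 47.3% ± 0.609 in CONTROL and 53.8% ± 0.726 in SW480 (RPKM, read counts scaled by transcript length and library size, SD, n = 3 each). HIF1A thus had the higher level of the pair in APC and SW480 and EPAS1 in CONTROL.

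Of the oxygen-sensing prolyl hydroxylases, EGLN3 rose in both APC comparisons and EGLN1 did not. EGLN3, itself induced by HIF, averaged 9.63 ± 0.5797 CPM in APC, 7.897 ± 0.457 CPM in CONTROL and 5.73 ± 0.267 CPM in SW480 (SD, n = 3 each). Its log2 fold change was 0.28 ± 0.10 against CONTROL (edgeR adjusted p = 0.0126) and 0.75 ± 0.11 against SW480 (adjusted p = 1.29e-07). The EGLN3 call against CONTROL was lost without APC replicate 3 (adjusted p = 0.0652), without CONTROL replicate 2 (0.054) and in DESeq2 (0.0509). EGLN1, the main sensor of most cells, averaged 42.8 ± 3.61 CPM in APC, 47.8 ± 1.21 CPM in CONTROL and 41.3 ± 0.446 CPM in SW480. Its fall of 0.16 on the log2 scale against CONTROL (edgeR adjusted p = 0.0105) gave way without APC replicate 3 (−0.09, adjusted p = 0.164). Against SW480 EGLN1 differed by 0.05 ± 0.06 (adjusted p = 0.414).

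All 4 pH and secreted targets rose against CONTROL, beside 34.8% of all genes. Of the 4, 3 also rose against SW480, beside 27.8% of all genes higher in both. CA9, a carbonic anhydrase of the cell surface and a widely used hypoxia marker, had 325, 278 and 257 counts in APC, 6, 0 and 2 counts in CONTROL and 11, 16 and 10 counts in SW480. As CPM these were 17.9, 16.1 and 15.02 in APC, 0.322, 0 and 0.104 in CONTROL and 0.592, 0.857 and 0.537 in SW480. Every APC library stood far above the others, and 1 CONTROL library had no read. The log2 fold change of CA9 was 6.72 ± 0.24 in APC against CONTROL (106-fold, edgeR adjusted p = 3.9e-22) and 4.61 ± 0.18 in APC against SW480 (24.4-fold, adjusted p = 3.74e-21). For CONTROL against SW480 it was −2.11 ± 0.53 (adjusted p = 0.00119). The values with CONTROL rest on few CONTROL reads, and those with SW480 on few SW480 reads. The ± values of CA9 were derived from the test's F statistic and understate the uncertainty that so few reads carry. With a library left out, CA9 in APC against CONTROL ranged from 6.23 to 8.02. Without CONTROL replicate 1, the log2 fold change of CA9 was 8.02 in APC against CONTROL and −3.40 in CONTROL against SW480, and with 1 RPKM added to each value in limma it was 3.24 and −0.35. In APC against SW480 the CA9 value with 1 RPKM added was 2.88. CA9 passed the low-count filter through the APC libraries, since 2 other libraries, both SW480, reached the filter's level. In bulk RNA, more CA9 in each cell and a larger share of cells with CA9 cannot be told apart.

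CA12, a second surface carbonic anhydrase, was scarce in all lines. It had 25, 35 and 27 counts in APC, 15, 10 and 8 counts in CONTROL and 7, 15 and 8 counts in SW480, or 1.37, 2.02 and 1.58 CPM in APC, 0.806, 0.614 and 0.416 CPM in CONTROL and 0.377, 0.804 and 0.4297 CPM in SW480. The APC libraries lay above all others, and CONTROL and SW480 overlapped. Its log2 fold change was 1.43 ± 0.30 against CONTROL (edgeR adjusted p = 8.51e-05) and 1.61 ± 0.31 against SW480 (adjusted p = 2.06e-05). With 1 RPKM added in limma, which shrinks changes of genes this low, the CA12 values were 0.26 and 0.28.

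VEGFA, the main growth factor of blood vessels, differed between all 3 lines. It was just under the 2-fold mark against CONTROL, so its libraries are listed by choice after its values were seen. It had 35.1, 35.3 and 34.6 CPM in APC, 16.5, 16.6 and 19.3 CPM in CONTROL and 8.67, 10.2 and 8.81 CPM in SW480, with no overlap between any pair of lines. The log2 fold change of VEGFA was 1.00 ± 0.07 in APC against CONTROL (edgeR adjusted p = 1.33e-14), 1.92 ± 0.08 in APC against SW480 (adjusted p = 2.99e-21) and 0.93 ± 0.09 in CONTROL against SW480 (adjusted p = 8.09e-11).

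ADM, a vasodilator peptide that HIF induces, averaged 34.4 ± 1.62 CPM in APC, 18.8 ± 1.49 CPM in CONTROL and 31.5 ± 5.36 CPM in SW480. ADM rose against CONTROL by 0.88 ± 0.11 on the log2 scale (edgeR adjusted p = 9.87e-06). The ADM difference between APC and SW480 was 0.13 ± 0.10 (adjusted p = 0.268), and it passed without SW480 replicate 1 (0.23, adjusted p = 0.0121) and with no low-count filter (0.14, adjusted p = 0.0427). CONTROL was the low line for ADM, at −0.75 ± 0.11 against SW480 (adjusted p = 9.76e-05).

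**Figure D2:**
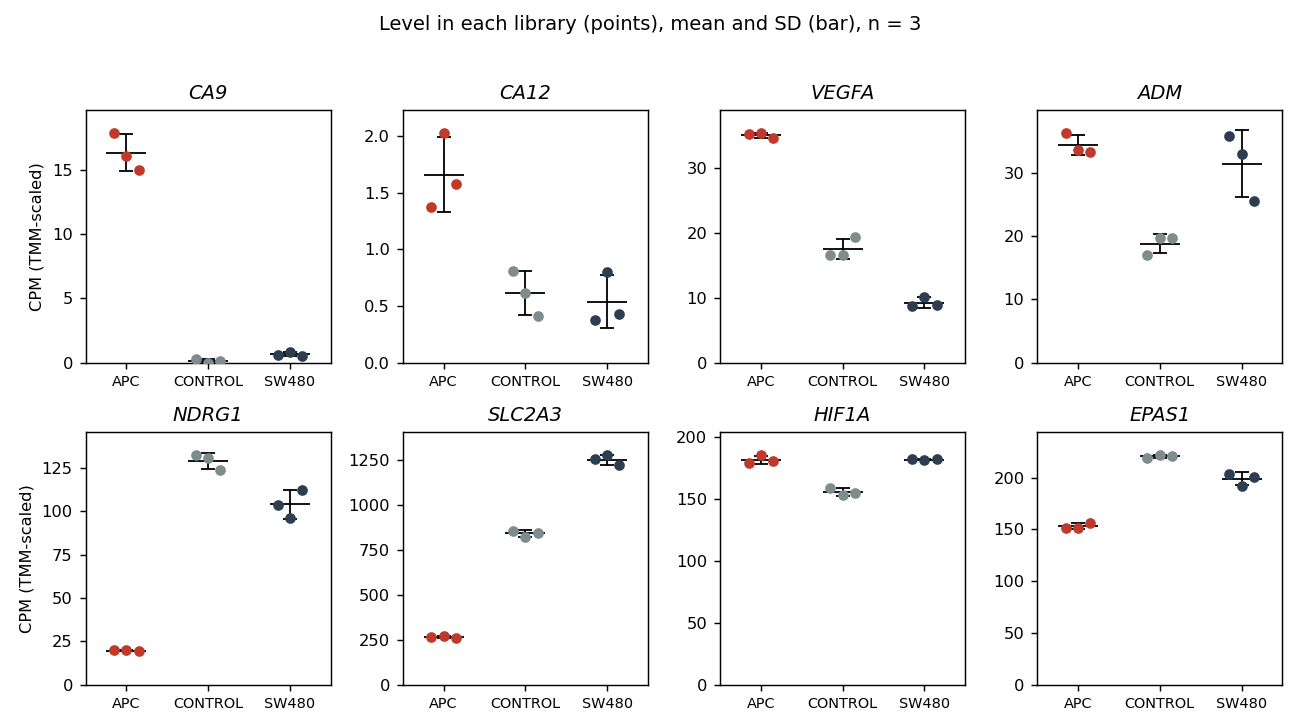
TMM-scaled CPM of single libraries (points) with the group mean and SD (bars, n = 3) for 8 members, in APC, CONTROL and SW480, each panel on its own linear axis from 0. Every APC point lies above all others for CA9, CA12 and VEGFA, and below all others for NDRG1, SLC2A3 and EPAS1.

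Among the stress and matrix targets 3 members fell in both APC comparisons and 1 rose in both, beside 27.9% and 27.8% of all genes. P4HA1 was called higher against SW480 and not called against CONTROL. NDRG1, a stress-induced gene that is one of the classic HIF targets, had 20.01, 20.01 and 19.2 CPM in APC, 132, 131 and 124 CPM in CONTROL and 104, 95.9 and 112 CPM in SW480. The APC libraries were far below the rest and close to each other. NDRG1 changed by −2.71 ± 0.06 on the log2 scale against CONTROL (6.53-fold lower in APC, edgeR adjusted p = 5.95e-29) and by −2.40 ± 0.06 against SW480 (5.26-fold lower, adjusted p = 2.78e-27). BNIP3L, a mitophagy receptor, averaged 64.1 ± 4.76 CPM in APC, 84.2 ± 3.26 CPM in CONTROL and 87.6 ± 0.976 CPM in SW480. BNIP3L fell by 0.40 against CONTROL and by 0.45 against SW480 (edgeR adjusted p = 1.12e-08 and 5.25e-10).

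ANKRD37, an ankyrin-repeat gene induced by HIF-1, was low and averaged 2.98 ± 0.578 CPM in APC, 5.004 ± 0.379 CPM in CONTROL and 5.89 ± 0.586 CPM in SW480. ANKRD37 fell by 0.74 against CONTROL and by 0.98 against SW480 on the log2 scale (edgeR adjusted p = 6.94e-05 and 4.27e-07). The collagen prolyl hydroxylase subunit P4HA2 went the other way. It averaged 125 ± 1.85 CPM in APC, 78.2 ± 2.45 CPM in CONTROL and 64.9 ± 1.104 CPM in SW480, a rise of 0.67 ± 0.04 against CONTROL and 0.94 ± 0.04 against SW480 (edgeR adjusted p = 4.91e-16 and 6.67e-20). Its paralog P4HA1 averaged 34.4 ± 1.12 CPM in APC, 32.6 ± 1.08 CPM in CONTROL and 30.4 ± 1.37 CPM in SW480. The P4HA1 difference was 0.08 ± 0.06 against CONTROL (adjusted p = 0.233) and 0.18 ± 0.06 against SW480 (adjusted p = 0.00652).

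The promoters of 5 members are shown because their genes moved in different directions while each window holds the ACGTG core. CA9, SLC16A3 and PFKFB3 rose in both APC comparisons, and ANKRD37 and ENO2 fell in both. Each is the 250 bases before a transcript start, 5′ to 3′ on the gene's strand, from RefSeq on GRCh38.p14, with ACGTG on either strand in capitals (CACGT on the printed strand is ACGTG on the other). All 5 genes lie on the plus strand. The windows are chr9:35673678-35673927 for CA9, chr17:82228792-82229041 for SLC16A3, chr10:6202682-6202931 for PFKFB3, chr4:185396591-185396840 for ANKRD37 and chr12:6914330-6914579 for ENO2.
CA9: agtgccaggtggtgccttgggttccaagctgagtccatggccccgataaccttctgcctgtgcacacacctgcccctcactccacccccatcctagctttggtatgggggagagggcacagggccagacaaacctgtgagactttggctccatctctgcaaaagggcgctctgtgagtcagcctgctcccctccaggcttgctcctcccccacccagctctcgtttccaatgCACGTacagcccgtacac
SLC16A3: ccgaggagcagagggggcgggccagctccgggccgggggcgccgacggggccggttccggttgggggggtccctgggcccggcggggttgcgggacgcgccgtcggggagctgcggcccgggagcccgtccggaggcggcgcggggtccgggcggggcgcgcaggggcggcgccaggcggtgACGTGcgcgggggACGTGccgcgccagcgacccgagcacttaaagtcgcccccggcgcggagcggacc
PFKFB3: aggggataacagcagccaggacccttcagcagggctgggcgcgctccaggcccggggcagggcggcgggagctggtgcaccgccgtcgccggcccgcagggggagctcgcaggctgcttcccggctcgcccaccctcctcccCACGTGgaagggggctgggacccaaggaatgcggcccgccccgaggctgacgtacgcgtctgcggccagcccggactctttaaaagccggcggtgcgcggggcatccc
ANKRD37: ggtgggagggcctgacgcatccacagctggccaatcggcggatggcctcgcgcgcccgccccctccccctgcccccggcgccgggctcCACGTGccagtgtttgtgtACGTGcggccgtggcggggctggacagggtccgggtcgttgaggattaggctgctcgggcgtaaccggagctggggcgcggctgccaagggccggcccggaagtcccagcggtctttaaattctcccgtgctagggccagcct
ENO2: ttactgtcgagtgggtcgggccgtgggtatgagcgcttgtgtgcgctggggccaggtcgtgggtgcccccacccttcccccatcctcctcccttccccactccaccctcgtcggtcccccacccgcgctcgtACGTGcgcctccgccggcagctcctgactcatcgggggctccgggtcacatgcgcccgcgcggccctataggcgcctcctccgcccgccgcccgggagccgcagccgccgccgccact
In CA9 the match lies on the minus strand 18 bases before the start. SLC16A3 has matches 68 and 55 bases before the start shown, and ENO2 has 1 at 118 bases. PFKFB3 and ANKRD37 hold CACGTG, the E-box that MYC also binds, which counts as ACGTG on both strands. PFKFB3 and SLC16A3 have other start sites, whose windows do not hold ACGTG.

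RefSeq windows were found for 33 members, 60 windows in all, and VEGFA, NDRG1, BNIP3L, SLC2A3 and SLC16A1 had no entry. ACGTG on either strand was in 36.7% of the members' windows, beside 18.5% of all 35116 windows of the same length. GCGTG was in 31.7% of members' windows, beside 32.2% of all. Among the members higher in both APC comparisons, 33.3% of 18 windows held ACGTG. Among those lower in both, 25.0% of 12 windows held it, and among the others 43.3% of 30 windows. These windows came from 11 genes higher in both, 6 lower in both and 16 others. A gene with several start sites counts several times, and most windows of the lower group were those of PFKM, many of them overlapping. The percentages are therefore not shares of genes. The motif was thus present in windows of genes that rose, fell or did neither, and a match in letters is not a bound site.

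Both glucose transporters among the members fell in both APC comparisons, beside 27.9% of all genes. SLC2A3, the high-affinity glucose transporter GLUT3, had 264, 269.8 and 259 CPM in APC, 858, 822 and 847 CPM in CONTROL and 1258, 1278 and 1222 CPM in SW480. The 3 lines did not overlap, with APC lowest and SW480 highest. SLC2A3 changed by −1.67 ± 0.04 on the log2 scale against CONTROL (3.19-fold lower in APC, edgeR adjusted p = 1.56e-28) and by −2.24 ± 0.04 against SW480 (4.74-fold lower, adjusted p = 3.84e-32). CONTROL was 1.49-fold below SW480. Reads of SLC2A3 can also match SLC2A14, a near-identical copy that moved the same way, at 6.47 CPM in APC, 20.97 CPM in CONTROL and 34.8 CPM in SW480. The split between these copies is uncertain.

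SLC2A1, the widely expressed transporter GLUT1, fell less. It averaged 785 ± 22.8 CPM in APC, 878 ± 11.9 CPM in CONTROL and 1164 ± 43.6 CPM in SW480, a log2 fold change of −0.16 ± 0.04 against CONTROL and −0.57 ± 0.04 against SW480 (edgeR adjusted p = 0.000293 and 2.76e-15). Per length, SLC2A3 held 23.9% ± 0.652 of the summed GLUT1 and GLUT3 level in APC, 47.2% ± 0.6401 in CONTROL and 50.1% ± 1.24 in SW480 (RPKM, SD, n = 3 each). The sum itself was 246 ± 3.05 RPKM in APC, 399 ± 6.79 RPKM in CONTROL and 568 ± 13.2 RPKM in SW480. All APC shares lay below all others, and an exact permutation test of 3 against 3 cannot go below a two-sided p of 0.1.

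The hexokinases among the members, HK1 and HK2, which trap glucose in the cell, showed no called change against CONTROL. HK2, the HIF-inducible form, averaged 77.7 ± 1.06 CPM in APC, 81.8 ± 2.01 CPM in CONTROL and 51.00 ± 2.45 CPM in SW480. Its log2 fold change was −0.08 ± 0.05 against CONTROL (edgeR adjusted p = 0.134) but 0.61 ± 0.05 against SW480 (adjusted p = 1.8e-13), and CONTROL was above SW480 by 0.68 ± 0.05. HK1, the constitutive form, averaged 112 ± 1.52 CPM in APC, 106 ± 0.452 CPM in CONTROL and 102 ± 3.03 CPM in SW480, with 0.08 ± 0.04 against CONTROL (adjusted p = 0.0721) and 0.14 ± 0.04 against SW480 (adjusted p = 0.00269). HK1 passed against CONTROL when counts were summed over transcripts (adjusted p = 0.0297), a setting that counts shared reads more than once.

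In upper glycolysis 1 member rose and 2 fell in both APC comparisons, beside 27.8% and 27.9% of all genes. PFKFB3, which makes fructose 2,6-bisphosphate, the activator of phosphofructokinase, averaged 47.7 ± 1.06 CPM in APC, 24.7 ± 1.06 CPM in CONTROL and 26.2 ± 1.66 CPM in SW480. PFKFB3 rose by 0.95 ± 0.06 against CONTROL and 0.86 ± 0.06 against SW480 (edgeR adjusted p = 3.93e-16 and 3.66e-15), and CONTROL and SW480 differed by −0.09 ± 0.06 (adjusted p = 0.247). PFKFB4, a second enzyme of that kind, averaged 9.46 ± 1.22 CPM in APC, 12.05 ± 0.782 CPM in CONTROL and 17.7 ± 0.493 CPM in SW480. PFKFB4 fell by 0.34 against CONTROL and by 0.90 against SW480 (edgeR adjusted p = 0.00202 and 5.82e-11). PFKFB3 thereby held 79.5% ± 1.81 of their summed RPKM in APC, 61.1% ± 1.82 in CONTROL and 53.1% ± 2.22 in SW480.

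PFKM, the muscle-type phosphofructokinase, averaged 94.5 ± 1.73 CPM in APC, 146 ± 2.798 CPM in CONTROL and 152 ± 1.78 CPM in SW480. PFKM fell by 0.63 against CONTROL and by 0.69 against SW480 (edgeR adjusted p = 3.97e-16 and 3.26e-17). The liver and platelet types were not called against CONTROL. PFKL averaged 159 ± 9.03 CPM in APC, 150.5 ± 4.83 CPM in CONTROL and 136 ± 7.39 CPM in SW480, and PFKP averaged 137 ± 3.62 CPM in APC, 136 ± 3.97 CPM in CONTROL and 118 ± 5.66 CPM in SW480. Against CONTROL their log2 fold changes were 0.08 ± 0.04 for PFKL and 0.01 ± 0.04 for PFKP (adjusted p = 0.115 and 0.789). Without APC replicate 2, PFKL passed at 0.12 (adjusted p = 0.0348). PFKM made up 21.4% ± 0.713 of phosphofructokinase RPKM in APC, 30.3% ± 0.835 in CONTROL and 33.9% ± 1.13 in SW480, and the family sum was 109 ± 2.44 RPKM in APC, 121 ± 1.99 RPKM in CONTROL and 114 ± 2.42 RPKM in SW480.

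The remaining upper enzymes had smaller differences. GPI, the glucose 6-phosphate isomerase, averaged 735 ± 20.9 CPM in APC, 702 ± 26.4 CPM in CONTROL and 614 ± 27.5 CPM in SW480, with 0.07 ± 0.04 against CONTROL (edgeR adjusted p = 0.125) and 0.26 ± 0.04 against SW480 (adjusted p = 4.82e-07). ALDOA, the main aldolase, averaged 992 ± 18.7 CPM in APC, 1031 ± 39.01 CPM in CONTROL and 947 ± 68.1 CPM in SW480, and it was called in neither APC comparison (adjusted p = 0.246 and 0.167). It passed against SW480 without SW480 replicate 1 (0.11, adjusted p = 0.0161). ALDOC, the brain-type aldolase and a common hypoxia target, averaged 4.92 ± 0.129 CPM in APC, 5.03 ± 0.542 CPM in CONTROL and 4.49 ± 0.7499 CPM in SW480 and was called in no comparison.

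**Figure D3:**
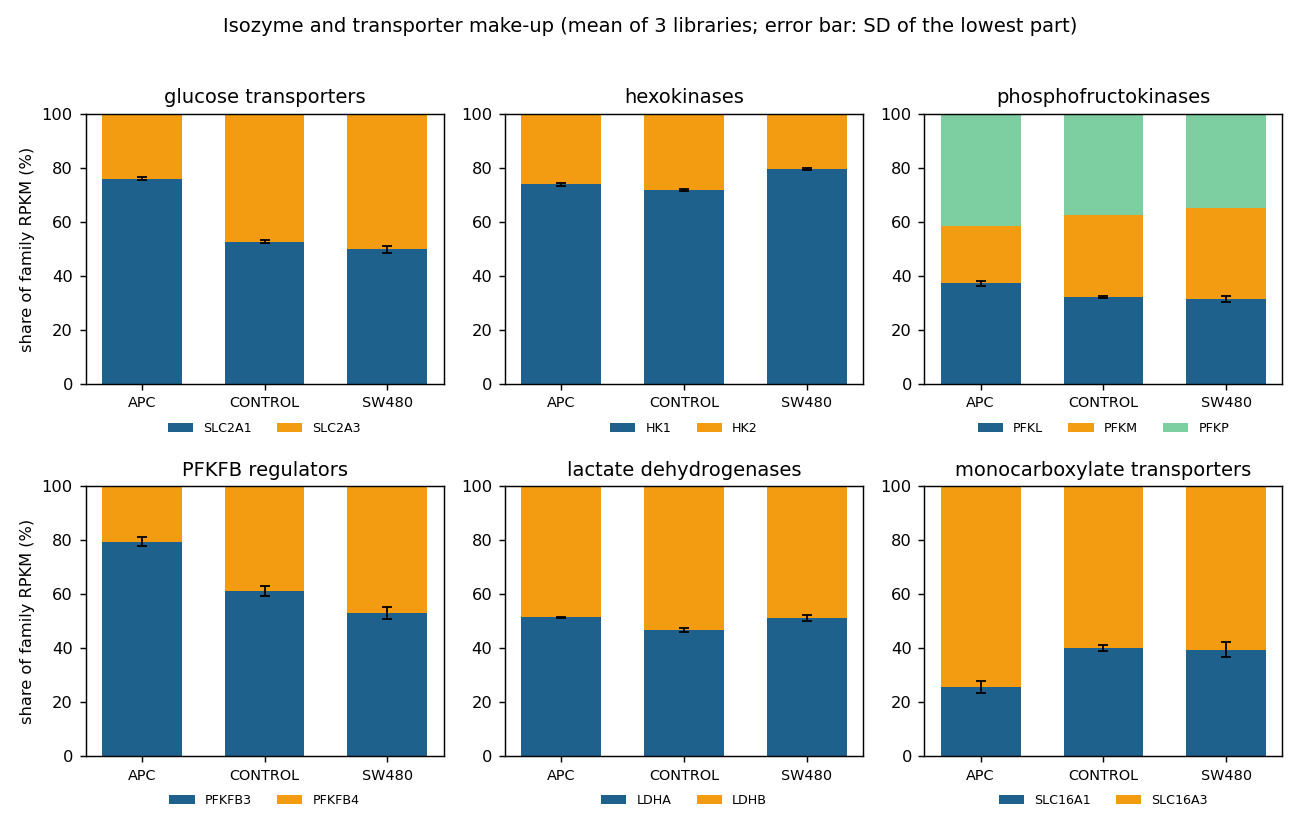
Share of each isozyme in its family's summed RPKM, in percent, for APC, CONTROL and SW480, as stacked bars of the mean over 3 libraries with the SD of the lowest part. The glucose transporter share of SLC2A3 is 23.9% in APC, against 47.2% in CONTROL and 50.1% in SW480, and the PFKFB3 share is 79.5% in APC, against 61.1% in CONTROL and 53.1% in SW480.

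In lower glycolysis 4 of 7 members rose in both APC comparisons and 1 fell in both, beside 27.8% and 27.9% of all genes. TPI1, the triose phosphate isomerase, rose most, averaging 1672 ± 45.7 CPM in APC, 1211 ± 4.69 CPM in CONTROL and 1179.7 ± 48.4 CPM in SW480. Its log2 fold change was 0.46 ± 0.04 against CONTROL and 0.50 ± 0.04 against SW480 (edgeR adjusted p = 7.24e-13 and 9.29e-14). GAPDH, often used as a reference gene, was not constant across the lines. It averaged 6531 ± 57.2 CPM in APC, 5349 ± 89.7 CPM in CONTROL and 5043 ± 109 CPM in SW480, with 0.29 ± 0.04 against CONTROL and 0.37 ± 0.04 against SW480 (edgeR adjusted p = 6.56e-08 and 2.53e-10). GAPDH and PGAM1 have 62 and 13 pseudogenes named for them in GENCODE 29, and it is not stated how reads matching several places were counted, so their levels carry that uncertainty.

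The other rises were small. PGAM1, a phosphoglycerate mutase, averaged 547 ± 12.7 CPM in APC, 506 ± 1.14 CPM in CONTROL and 484 ± 8.58 CPM in SW480, with 0.11 ± 0.04 against CONTROL (edgeR adjusted p = 0.00578) and 0.18 ± 0.04 against SW480 (adjusted p = 3.72e-05). PKM, the pyruvate kinase, averaged 2254 ± 65.04 CPM in APC, 2106 ± 44.6 CPM in CONTROL and 1976 ± 99.8 CPM in SW480, with 0.10 ± 0.04 against CONTROL (adjusted p = 0.0298) and 0.19 ± 0.04 against SW480 (adjusted p = 8.78e-05). The PKM call against CONTROL was lost without APC replicate 3 (adjusted p = 0.112), without CONTROL replicate 1 (0.0881), without CONTROL replicate 3 (0.0795) and in limma on RPKM (0.0788 with 1 added, 0.076 with 0.1 added). Overlapping transcripts of a gene carried nearly the same counts, so the PKM splice forms were not separated.

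PGK1, a phosphoglycerate kinase, averaged 808 ± 14.8 CPM in APC, 771 ± 10.96 CPM in CONTROL and 720.0 ± 23.9 CPM in SW480. PGK1 missed the threshold against CONTROL (0.07 ± 0.04, edgeR adjusted p = 0.1), passed there when only those 6 libraries were fitted (adjusted p = 0.0463), and was higher against SW480 (0.17 ± 0.04, adjusted p = 0.000145). ENO1, the main enolase, averaged 2644 ± 88.6 CPM in APC, 2609 ± 49.4 CPM in CONTROL and 2182 ± 101 CPM in SW480, with 0.02 ± 0.04 against CONTROL (adjusted p = 0.686) and 0.28 ± 0.04 against SW480 (adjusted p = 2.42e-07). ENO2, the neuronal enolase, was the member that fell. It averaged 66.02 ± 1.13 CPM in APC, 103 ± 1.05 CPM in CONTROL and 103 ± 5.87 CPM in SW480, a fall of 0.64 against CONTROL and of 0.65 against SW480 (edgeR adjusted p = 1.64e-14 and 1.22e-14).

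At the pyruvate and lactate end, SLC16A3 and LDHA rose in both APC comparisons. SLC16A3, the lactate exporter MCT4, had 383, 321 and 311 CPM in APC, 171, 188 and 181 CPM in CONTROL and 208, 177 and 188 CPM in SW480. All APC libraries were above all others, and CONTROL and SW480 overlapped. Its log2 fold change was 0.91 ± 0.09 against CONTROL and 0.83 ± 0.09 against SW480 (edgeR adjusted p = 5.38e-05 and 9.05e-05). SLC16A1, the transporter MCT1, averaged 218 ± 1.28 CPM in APC, 226 ± 0.8699 CPM in CONTROL and 234 ± 7.78 CPM in SW480. SLC16A1 was not called against CONTROL (−0.05 ± 0.04, adjusted p = 0.224). Its fall against SW480 (−0.10 ± 0.04, adjusted p = 0.0137) was lost without SW480 replicate 2 (−0.07, adjusted p = 0.0946). SLC16A3 held 74.4% ± 2.21 of the RPKM of both transporters in APC, 60.04% ± 1.23 in CONTROL and 60.6% ± 2.69 in SW480.

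LDHA, which favours lactate formation, averaged 1892 ± 38.9 CPM in APC, 1699 ± 23.2 CPM in CONTROL and 1477 ± 48.96 CPM in SW480, with 0.15 ± 0.04 against CONTROL and 0.36 ± 0.04 against SW480 (edgeR adjusted p = 0.000476 and 2.85e-10). LDHB, the other lactate dehydrogenase subunit, averaged 1021 ± 30.2 CPM in APC, 1107 ± 22.03 CPM in CONTROL and 807 ± 63.8 CPM in SW480. LDHB was lower in APC than in CONTROL (−0.12 ± 0.04, edgeR adjusted p = 0.0187) and higher in APC than in SW480 (0.34 ± 0.04, adjusted p = 4.62e-08). The LDHB call against CONTROL was lost without APC replicate 1 (−0.09, adjusted p = 0.0925), without APC replicate 3 (−0.11, 0.0617) and without CONTROL replicate 3 (−0.09, 0.13). CONTROL was above SW480 for LDHB by 0.46 ± 0.04 (adjusted p = 4.94e-10).

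PDK1, the kinase that inhibits pyruvate dehydrogenase and a known HIF-1 target, averaged 19.96 ± 2.096 CPM in APC, 23.5 ± 1.92 CPM in CONTROL and 18.96 ± 1.05 CPM in SW480. Its fall of 0.24 against CONTROL (edgeR adjusted p = 0.0059) came with overlapping libraries, and it was lost without APC replicate 3 (−0.18, adjusted p = 0.0571) and without CONTROL replicate 3 (−0.18, 0.0706). Against SW480 the difference was 0.07 ± 0.08 (adjusted p = 0.414).

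Per length, the pathway covered a wide range of levels in all 3 lines. GAPDH was highest, at 4128 ± 76.97 RPKM in APC, 3407 ± 46.1 RPKM in CONTROL and 3258 ± 50.6 RPKM in SW480 (SD, n = 3 each), followed by ENO1 at 1057 ± 45.2 RPKM in APC, 1051 ± 16.6 RPKM in CONTROL and 891 ± 35.2 RPKM in SW480. The summed hexokinases HK1 and HK2 were much lower, at 36.8 ± 0.5897 RPKM in APC, 36.1 ± 0.516 RPKM in CONTROL and 31.7 ± 0.842 RPKM in SW480. The 24 glycolysis genes together took 2.12% ± 0.0215 of gene counts in APC, 1.99% ± 0.0200 in CONTROL and 1.93% ± 0.0279 in SW480 (SD, n = 3 each). GAPDH alone took 0.645% ± 0.00724 in APC, 0.532% ± 0.00682 in CONTROL and 0.513% ± 0.0051 in SW480. Its difference between APC and CONTROL was nearly as large as the net difference of the 24 genes. That net value also holds rises of other genes, such as TPI1, and falls, such as SLC2A3. The 14 hypoxia genes took 0.0711% ± 0.000429 in APC, 0.0793% ± 0.000680 in CONTROL and 0.0776% ± 0.000568 in SW480. The fall of NDRG1 alone from CONTROL to APC was larger than the net difference of that sum. Of the 13 hypoxia genes tested, 7 rose and 5 fell in APC against CONTROL, beside 34.8% and 35.4% of all genes.

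**Figure D4:**
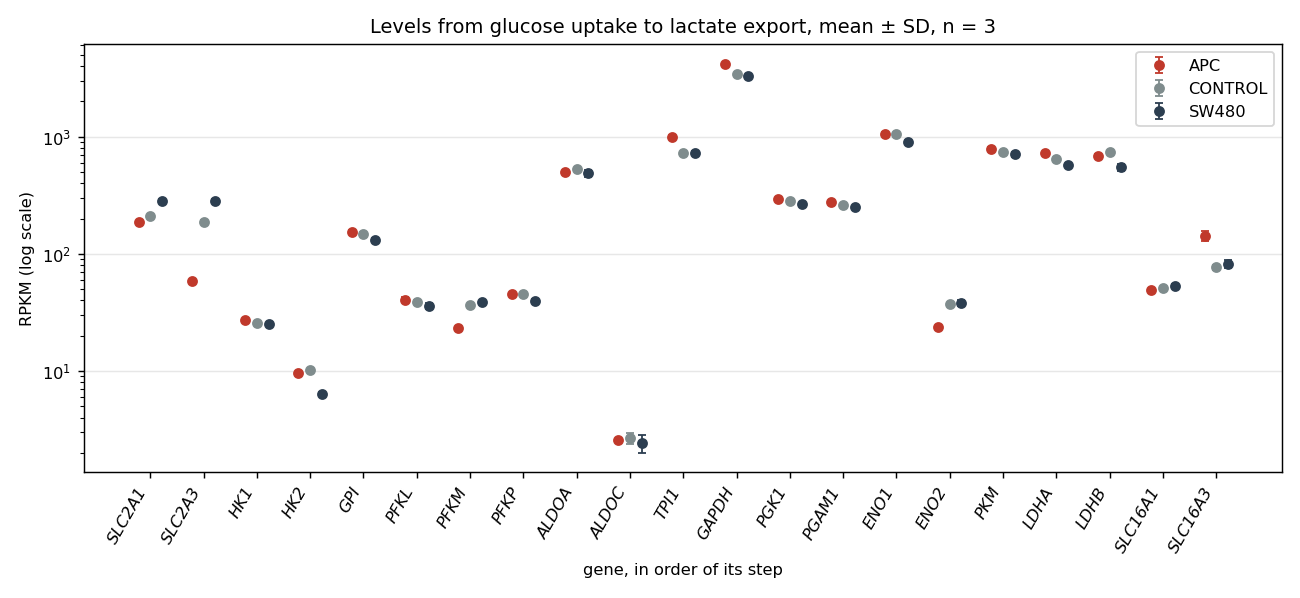
RPKM on a log scale (mean ± SD, n = 3) of 21 transporters and enzymes in order from glucose uptake to lactate export, for APC, CONTROL and SW480, without the regulators PFKFB3, PFKFB4 and PDK1. APC lies below both other lines at SLC2A3, PFKM and ENO2 and above both at TPI1 and SLC16A3. Smaller gaps to both lines also occur, among them SLC2A1 below and GAPDH and LDHA above.

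Some members differed from SW480 in both derived lines, which carried a vector and received G418, as SW480 did not. The part of each was not tested. In all, 8 members were higher in APC than in SW480 without being called against CONTROL, and 6 of them (HK2, GPI, PFKL, PFKP, PGK1 and ENO1) were also higher in CONTROL than in SW480. Over all genes, 6.41% had the first pattern and 4.8% the second. Among these, HK2 had the largest difference between CONTROL and SW480, at 81.8 ± 2.01 CPM in CONTROL and 51.00 ± 2.45 CPM in SW480. The CONTROL differences of PFKL and PGK1 were small and not stable. PFKL, at 0.14 (edgeR adjusted p = 0.00755), was lost without CONTROL replicate 2 (adjusted p = 0.0514) and in limma (0.0513 with 1 RPKM added, 0.0505 with 0.1 added). PGK1, at 0.10 (adjusted p = 0.024), was lost without CONTROL replicate 1 (0.0978), without CONTROL replicate 2 (0.0707), without SW480 replicate 1 (0.107), in limma (0.0771 with 1 RPKM added, 0.0769 with 0.1 added) and with library totals (0.11). CA9 was the only member over 2-fold apart between CONTROL and SW480, beside 4.9% of all genes.

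The wider HIF pathway moved in a mixed way too. Of 15 other pathway regulators 14 were tested, and 4 rose and 2 fell in both APC comparisons, beside 27.8% and 27.9% of all genes. The list's median log2 fold change was −0.02 in APC against CONTROL and −0.07 in APC against SW480, beside −0.01 for all genes in each. HIF1AN, the asparaginyl hydroxylase that blocks HIF activity, averaged 94.2 ± 1.65 CPM in APC, 63.6 ± 2.599 CPM in CONTROL and 62.8 ± 1.48 CPM in SW480, a log2 fold change of 0.57 ± 0.05 against CONTROL and 0.58 ± 0.04 against SW480 (edgeR adjusted p = 3.13e-13 and 1.36e-13). EGLN2, the third prolyl hydroxylase, and SIAH2, a ubiquitin ligase of prolyl hydroxylases, rose in both, by 0.50 and 0.50 against CONTROL and by 0.37 and 0.48 against SW480. CITED2, which competes with HIF for its coactivator, averaged 6.29 ± 0.208 CPM in APC, 21.03 ± 1.47 CPM in CONTROL and 28.96 ± 1.89 CPM in SW480, a change of −1.74 ± 0.09 against CONTROL and −2.20 ± 0.09 against SW480 (edgeR adjusted p = 4.71e-18 and 1.16e-21). ARNT2, a partner subunit, also fell in both, to 13.7 ± 0.588 CPM in APC, against 28.6 ± 0.851 CPM in CONTROL and 21.9 ± 1.02 CPM in SW480. VHL, the ubiquitin ligase subunit that removes hydroxylated HIF, was called in opposite directions, at 42.4 ± 1.47 CPM in APC, 27.8 ± 1.901 CPM in CONTROL and 49.5 ± 3.07 CPM in SW480.

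A list of 37 other hypoxia-induced genes, 36 of them tested, held 14 that rose and 14 that fell in both APC comparisons, beside 27.8% and 27.9% of all genes. Its median log2 fold change was −0.00 in APC against CONTROL and −0.05 in APC against SW480. ANGPTL4, a secreted inhibitor of lipoprotein lipase, averaged 44.3 ± 2.21 CPM in APC, 2.199 ± 0.332 CPM in CONTROL and 4.21 ± 1.05 CPM in SW480, 20.3-fold and 10.5-fold higher in APC (edgeR adjusted p = 1.51e-25 and 2.93e-24). DDIT4, an inhibitor of mTORC1, was 5.22-fold and 9.08-fold higher, at 83.8 ± 5.16 CPM in APC, 16.01 ± 1.61 CPM in CONTROL and 9.22 ± 2.01 CPM in SW480. On the other side, CXCR4, a chemokine receptor, averaged 16.1 ± 0.768 CPM in APC, 117 ± 2.35 CPM in CONTROL and 145 ± 2.83 CPM in SW480, 7.25-fold and 8.99-fold lower in APC (edgeR adjusted p = 3.46e-31 and 1.01e-32). VLDLR, a lipoprotein receptor, averaged 5.87 ± 1.01 CPM in APC, 51.5 ± 2.35 CPM in CONTROL and 41.4 ± 2.295 CPM in SW480, 8.79-fold and 7.06-fold lower.

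Isozymes and transporters beyond the members also split. Counts were present for 27 of them and 20 were tested, and 4 rose and 6 fell in both APC comparisons (all genes 27.8% and 27.9%), with a median of 0.05 against CONTROL and −0.18 against SW480. HKDC1, a hexokinase-like enzyme, averaged 12.6 ± 0.669 CPM in APC, 1.18 ± 0.201 CPM in CONTROL and 0.0718 ± 0.0823 CPM in SW480, where 4 reads were counted in all. It was 10.6-fold higher in APC than in CONTROL (edgeR adjusted p = 1.09e-19). The glucose transporters SLC2A6 and SLC2A12 rose in both, to 56.1 ± 1.72 and 11.8 ± 0.479 CPM in APC, against 20.3 ± 0.487 and 3.31 ± 0.522 CPM in CONTROL and 24.2 ± 1.07 and 3.12 ± 0.144 CPM in SW480. SLC2A10 fell in both, to 3.28 ± 0.399 CPM in APC, against 14.3 ± 0.844 CPM in CONTROL and 21.2 ± 0.329 CPM in SW480. The glucose transporter family as a whole therefore did not move 1 way.

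Of 14 genes for pyruvate entry into mitochondria, all tested, 7 rose and 3 fell in both APC comparisons (all genes 27.8% and 27.9%), with a median log2 fold change of 0.14 in each. PDP1, a phosphatase that reactivates pyruvate dehydrogenase, averaged 124 ± 3.901 CPM in APC, 277 ± 4.23 CPM in CONTROL and 417.97 ± 7.23 CPM in SW480, 2.24-fold and 3.37-fold lower in APC (edgeR adjusted p = 5.49e-24 and 3.02e-29). Its paralog PDP2 rose, to 30.6 ± 0.302 CPM in APC, against 12.1 ± 0.595 CPM in CONTROL and 9.62 ± 0.585 CPM in SW480. The inhibitory kinases split as well. PDK3 rose in both, to 56.2 ± 1.29 CPM in APC, against 28.8 ± 0.591 CPM in CONTROL and 28.7 ± 1.35 CPM in SW480, while PDK2 and PDK4 fell in both, to 15.4 ± 1.15 and 8.63 ± 1.85 CPM in APC, against 23.1 ± 0.7296 and 14.7 ± 0.696 CPM in CONTROL and 29.1 ± 1.395 and 13.6 ± 0.685 CPM in SW480. MPC1, a subunit of the mitochondrial pyruvate carrier, rose by 0.58 ± 0.07 against CONTROL and 0.52 ± 0.07 against SW480 (edgeR adjusted p = 5.2e-09 and 3.13e-08).

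In the pentose phosphate pathway, 3 of 9 genes rose and 2 fell in both APC comparisons (all genes 27.8% and 27.9%), with a median of 0.06 against CONTROL and −0.08 against SW480. H6PD, an enzyme of the endoplasmic reticulum, fell in both, to 44.9 ± 1.79 CPM in APC, against 76.6 ± 5.48 CPM in CONTROL and 77.5 ± 3.56 CPM in SW480. Of 7 gluconeogenesis genes 5 were tested, and 3 fell and none rose in both comparisons (all genes 27.9% and 27.8%), with a median of −0.46 against CONTROL and −0.38 against SW480. PCK2, the mitochondrial PEP carboxykinase, averaged 23.2 ± 1.16 CPM in APC, 69.2 ± 1.75 CPM in CONTROL and 42.1 ± 0.351 CPM in SW480, a change of −1.58 ± 0.05 against CONTROL and −0.86 ± 0.06 against SW480 (edgeR adjusted p = 2.23e-23 and 2.29e-15).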

How the data were processed

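The authors deposited, per the file headers, raw read counts per RefSeq transcript and a table of RPKM values for the 9 libraries. RPKM equalled the deposited count divided by transcript length and a constant per library for 100% of values within a relative 0.0001. Trimmomatic, TopHat, GATK and the genome build hg19 are named in the submitters' processing notes, with no versions. The sources used here do not give the counting tool, its treatment of reads that match several places, or strand, so antisense partners were not separated. For each of 20876 genes the transcript with the highest total count was kept, and 21 members have several transcripts, which share most reads (the next transcript had a median of 99.8% of the highest count). Of 65 transcript entries whose gene name a spreadsheet had turned into a date, 62 had it restored from their accessions.

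Counts of all 9 libraries were fitted together in edgeR 4.0.16 (TMM, low-count filter, robust quasi-likelihood test, R 4.3.3), with Benjamini-Hochberg adjustment over 14253 genes and a threshold of 0.05. The ± after a log2 fold change is an SE derived as its absolute value over the square root of the test's F statistic. For CA9, with few reads outside APC, this SE is too small. The biological coefficient of variation was 3.56%, and 3 counts corresponded to 0.156 to 0.184 CPM. On counts simulated for APC against CONTROL over 14253 genes, 83 of 100 genes changed 1.5-fold and 94 of 100 changed 2-fold were recovered. No other genes were changed there, while 10004 were called in the data, so these rates do not carry over directly. Alternatives were RLE size factors, DESeq2 1.42.0, no filter, counts summed over transcripts, limma 3.58.1 on log2 RPKM with 1 or 0.1 added, only the 6 libraries compared, the replicate number as a block, and each library left out. Summing over transcripts counts a read shared by several transcripts more than once, so its p-values are not an independent check. Library totals in place of TMM were added after seeing the data. Replicates differed by more than counting noise (chi-square per degree of freedom 1.35 to 5.54).

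Members and lists were chosen with earlier results of these data known. Libraries are listed singly for HIF1A, EPAS1, members over 2-fold the same way in both APC comparisons and members over 2-fold apart between CONTROL and SW480; SLC16A3 and VEGFA were added after their values were seen. VHL was named from the other lists after its values were seen. From other lists, up to 3 genes per direction with at least 10 CPM in the higher line were eligible, by the smaller fold change, and not every eligible gene is reported here.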

Additional observations from a re-analysis of the deposited data

How the results depend on the processing

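Of 111 results (37 members in 3 comparisons), 86 kept their direction and their side of the threshold under all 18 alternatives. The other 25 had reported log2 fold changes between −0.24 and 0.28, and no called value changed sign. Counts of members called stayed within 1.5 times, at 12 to 15 higher and 9 to 12 lower in APC against CONTROL, 21 to 23 and 9 to 10 in APC against SW480, and 13 to 18 and 6 to 8 in CONTROL against SW480. The median over members was 0.046 to 0.0722 in APC against CONTROL, 0.159 to 0.187 in APC against SW480 and 0.0729 to 0.101 in CONTROL against SW480 with a library left out. In APC against SW480 the median was 0.134 in limma with 1 RPKM added, 0.146 with 0.1 added and 0.133 with library totals. In CONTROL against SW480 it was 0.0724 in limma with 1 RPKM added and 0.0644 with library totals. Uncalled values near 0 changed sign. HIF1A in APC against SW480 was 0.0084 with RLE size factors, 0.00838 in DESeq2, 0.0105 with no filter, 0.0084 with summed transcripts, 0.00751 with 6 libraries, and −0.00491 to 0.0145 with a library left out. ENO2 in CONTROL against SW480 was 0.00573 with no filter and −0.0495 to 0.0336 with a library left out. The range with a library left out was −0.00746 to 0.0339 for PFKP, −0.0846 to 0.0608 for ALDOC and −0.00262 to 0.046 for ENO1 in APC against CONTROL, −0.00364 to 0.132 for PDK1 in APC against SW480 and −0.0821 to 0.587 for CA12 in CONTROL against SW480. The cause was not tested. In CONTROL against SW480, ALDOA (0.12, edgeR adjusted p = 0.018) was lost without CONTROL replicate 2 (adjusted p = 0.123), without SW480 replicate 2 (0.199), in limma (0.0963 with 1 RPKM added, 0.0938 with 0.1 added) and with library totals (0.0597). There PKM passed without SW480 replicate 3 (0.00372), with RLE (0.0487), in DESeq2 (0.0444) and with no filter (0.025). GAPDH passed there without SW480 replicate 3 (0.0182), in DESeq2 (0.0116) and with no filter (0.0481). It also passed with summed transcripts (0.0339), where shared reads count more than once. The deviations of same-numbered libraries from their group means correlated at −0.0656 to 0.0808. Those of different-numbered libraries correlated at −0.0789 to 0.0620, a similar range, so these values show no pairing by number. The replicate block changed no member's call and left 9991, 10295 and 7109 genes called, beside 10004, 10333 and 7130. Depth limits CA9 in CONTROL, CA12 and BNIP3, which rest on few reads.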
